A study of Mus musculus with 6 samples.

Results

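Prostaglandins are short-range lipid signals that fibroblasts make and answer to. Phospholipases free arachidonic acid from membranes, the cyclooxygenases Ptgs1 (COX-1) and Ptgs2 (COX-2) turn it into prostaglandin H2, and terminal synthases convert that intermediate into PGE2, prostacyclin or PGD2. Hpgd, the 15-hydroxyprostaglandin dehydrogenase, begins their inactivation. PGE2 acts through the receptors Ptger1 to Ptger4 (EP1 to EP4), and PGF2 alpha acts through Ptgfr (FP). EP2 and EP4 raise cyclic AMP, whereas EP3 mainly lowers it, and in stroma and tumors COX-2 and PGE2 are known for their part in inflammation and in restraining immune cells.

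The 10 genes described here were taken by symbol from the count table: the cyclooxygenases Ptgs1 and Ptgs2, the synthases Ptges, Ptgis and Ptgds, the breakdown enzyme Hpgd, and the receptors Ptger2, Ptger3, Ptger4 and Ptgfr. All 10 were found among 27179 genes, and 9 of them were among the 14855 genes tested after a filter on low counts. The libraries were bulk RNA sequencing of cancer-associated fibroblasts (CAFs) from mammary tumors of raGFP-Wnt1 mice, which carry a Pdgfra-GFP reporter of fibroblasts and a Wnt1 transgene under the MMTV promoter, active in mammary epithelium. GFP+ cells of 3 tumors were sorted by flow cytometry into CD34 positive (CD34+) and CD34 negative (CD34-) fibroblasts, 3 libraries per group, so that each tumor gave 1 library of each kind. All 6 libraries share both modifications, and the labels name no treatment. The ages of the mice are not in the labels, the GFP gate takes in any cell with an active Pdgfra locus, and no other tumor model is included. The comparison asks how CAFs without surface CD34 differ from those with it in the same tumors.

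Library totals ranged from 16238059 to 86609267 counts, so that 3 counts corresponded to between 0.0351 and 0.186 CPM (counts relative to library size, scaled further by the TMM factor, which corrects for composition). The sort check held in each tumor: Cd34 lay between 563 and 1605 CPM in CD34+ libraries and between 42.0 and 102 CPM in CD34- libraries. The 7 fibroblast markers summed to between 40262 and 58903 CPM in every library, most of it from Col1a1 and Col1a2. Single markers differed, with 3 higher and 3 lower in the CD34- library of all 3 tumors. Dcn averaged 6365 CPM in CD34+ and 2923 CPM in CD34- CAFs, and Pdgfrb averaged 368 and 688 CPM. The CD34- library of tumor 3 stood apart, with 161 genes at 0 that averaged at least 2 CPM elsewhere, against 1 to 31 such genes in the other 5, and for the members and the called pathway genes a log2 fold change that moves by over 1.5 times without it is also given that way. In sorted bulk RNA, fewer cells that use a gene and less of its RNA per cell cannot be told apart.

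The prostaglandin genes did not all move one way. At the level of group means, Hpgd was 4.89-fold, Ptgfr 3.45-fold, Ptgs1 2.43-fold and Ptgis 2.10-fold higher in CD34+ than in CD34- CAFs, and Ptger3 was 1.84-fold higher in CD34- CAFs. In limma-voom without a term for the tumor, since the study's methods name none, 0 of 9 members passed an adjusted p of 0.05, where 0.121% of all genes passed (18 of 14855). In that fit 5 members had an unadjusted p under 0.05, 4 lower and 1 higher in CD34- CAFs, against 14.3% of all genes (7.1% lower and 7.23% higher). With the tumor as a block, 5 of 9 members passed, 4 of them lower (Ptgs1, Ptgis, Hpgd and Ptgfr) and 1 higher (Ptger3) in CD34- CAFs, against 8.57% of all genes (4.25% lower and 4.32% higher). The blocked count depended on the tool: edgeR called 1 of 9 (Ptger3), against 3.87% of all genes, and DESeq2 called 4 of 9 (all but Hpgd of the 5), against 11.7%. Without the block DESeq2 called 2 of 9 (Ptgis and Ptgfr), against 4.7% of all genes. The members were chosen with earlier results of these data known, so these shares are only set side by side, and enrichment was not tested.

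The median log2 fold change of the 9 members, CD34- over CD34+, was -0.38, beside -0.03 over all genes tested. With the block these medians were -0.36 and -0.01. The groups did not overlap in CPM for 4 members, Ptgis, Hpgd and Ptgfr being lower and Ptger3 higher in CD34- CAFs, where 20.4% of all genes did not overlap (10% lower and 10.4% higher). Within tumors, 6 members were lower in the CD34- library of all 3 tumors and 2 were higher, whereas 46.3% of all genes had the same sign in all 3 (23.4% lower and 22.8% higher).

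**Figure D1:**
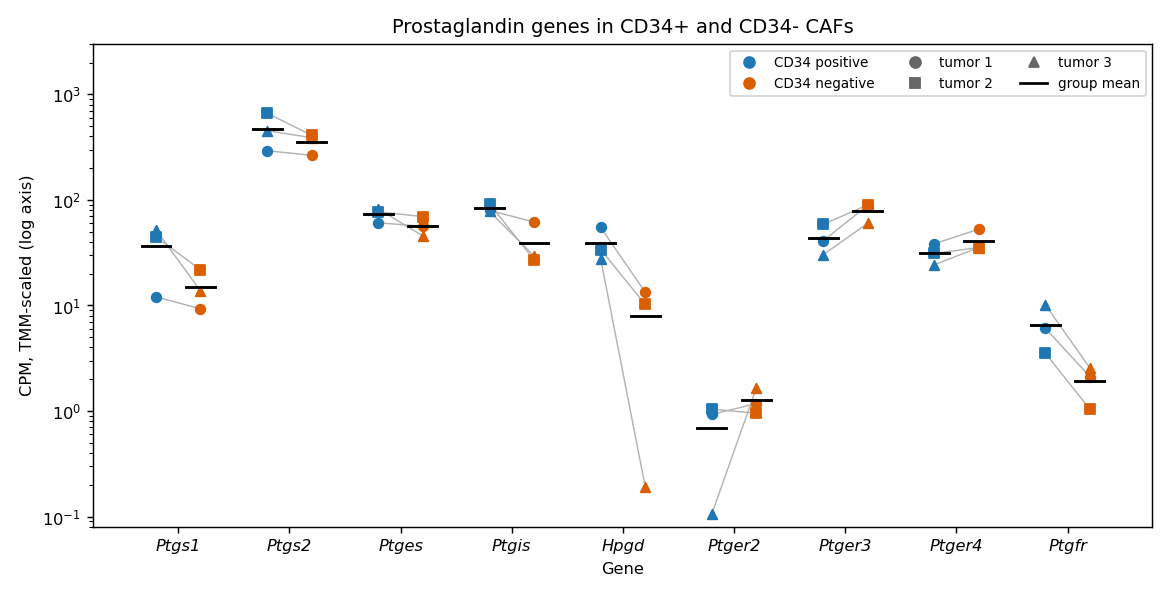
CPM of the 9 tested members on a log axis, CD34+ libraries in blue and CD34- libraries in orange, with symbols for the 3 tumors, grey lines joining the libraries of a tumor and black bars at the group means. Ptgis, Hpgd and Ptgfr lay lower in all CD34- libraries than in any CD34+ library, Ptger3 lay higher, and the Hpgd point at 0.193 CPM is the CD34- library of tumor 3.

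The cyclooxygenases stand at the head of the pathway. Ptgs1, the constitutive form, lies on chromosome 2 (36216742 to 36258593, build GRCm38.p6), and Ptgs2, the form induced by cytokines, growth factors and injury, lies on chromosome 1 (150100031 to 150108234). Both genes were lower in the CD34- library of all 3 tumors, but limma-voom with the tumor block called Ptgs1 and not Ptgs2. Their start regions in the RefSeq promoter table are printed here because the genes share a substrate and a product. Each stretch covers the 250 bases before the listed start, on the forward strand (Ptgs1 chr2:36230176-36230425, inside the longer RefSeq gene, and Ptgs2 chr1:150099781-150100030). Capitals mark a GC box (GGGCGG on either strand).

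Ptgs1: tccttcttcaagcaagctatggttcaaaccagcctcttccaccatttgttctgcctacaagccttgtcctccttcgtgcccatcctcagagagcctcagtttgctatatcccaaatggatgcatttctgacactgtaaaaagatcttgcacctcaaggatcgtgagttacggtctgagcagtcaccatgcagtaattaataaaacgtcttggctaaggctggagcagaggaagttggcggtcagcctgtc

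Ptgs2: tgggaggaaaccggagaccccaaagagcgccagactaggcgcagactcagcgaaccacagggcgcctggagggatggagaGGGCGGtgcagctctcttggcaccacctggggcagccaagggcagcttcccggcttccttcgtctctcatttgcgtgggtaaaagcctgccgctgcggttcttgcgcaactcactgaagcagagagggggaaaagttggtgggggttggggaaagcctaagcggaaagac

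Just after the listed Ptgs2 start, at chr1:150100035-150100064, lies a stretch that holds an E-box (CACGTG) overlapping the core of a cyclic AMP response element (TGACG, read on the reverse strand). Capitals mark their union.

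Ptgs2 start: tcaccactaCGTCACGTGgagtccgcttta

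Of 6 motifs searched on both strands in the 300-base windows (250 bases before to 50 after the start), the Ptgs1 window held none. These were the TATA box (TATAAA), the CCAAT box, the GC box (GGGCGG), the E-box (CACGTG), the core of the cyclic AMP response element (TGACG) and the AP-1 site (TGANTCA), some of which can overlap. Over all 32851 windows of that length, 35.7% held the GC box, 7.15% the E-box and 20.8% the cyclic AMP core. Among the 9 members with an entry (Ptgis has none), the GC box occurred in 6, and the E-box and the cyclic AMP core each in 1 (Ptgs2). These matches describe letters in the window and were not tied to the RNA values.

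Ptgs1 measured 12.1, 44.6 and 52.1 CPM in the CD34+ libraries of tumors 1, 2 and 3, and 9.29, 21.8 and 13.7 CPM in the CD34- libraries. The CD34+ library of tumor 1 was low and fell among the CD34- values, so that the groups overlapped, although the CD34- library was the lower one in each tumor. The means were 36.3 ± 21.3 CPM in CD34+ and 14.9 ± 6.32 CPM in CD34- CAFs (SD, n = 3 each). The log2 fold change was -1.36 ± 0.52 (SE, limma-voom adjusted p = 0.296), and with the tumor block Ptgs1 fell by 1.25 ± 0.25 in CD34- CAFs (adjusted p = 0.0168). The log2 ratios within tumors 1, 2 and 3 were -0.38, -1.03 and -1.92. The block called it in DESeq2 (adjusted p = 0.00782) and not in edgeR (adjusted p = 0.102).

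Ptgs2 was the most abundant member and measured 292, 662 and 452 CPM in CD34+ libraries of tumors 1 to 3, against 264, 410 and 388 CPM in CD34- libraries. Tumor 1 gave the lowest value of each group, and the groups overlapped. The means were 469 ± 186 and 354 ± 78.5 CPM, with a log2 fold change of -0.29 ± 0.31 (adjusted p = 0.704, limma-voom) and a 95% interval from -1.01 to 0.42. With the block it was -0.35 ± 0.14 (adjusted p = 0.177). The CD34- library was lower in all 3 tumors, and no alternative fit called a difference in Ptgs2.

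Per unit of gene length (RPKM, from the lengths in the count table), Ptgs2 made up between 85.7% and 95.2% of the summed cyclooxygenase RNA of a library. The log2 ratio of Ptgs2 to Ptgs1 counts was 4.59, 3.89 and 3.12 in CD34+ libraries and 4.83, 4.23 and 4.82 in CD34- libraries. It averaged 3.87 ± 0.74 and 4.63 ± 0.34 (SD, n = 3). The difference of 0.76 was in the same direction in 3 of 3 tumors, but the groups overlapped, and the two-sided exact permutation test gave p = 0.2 (0.2 adjusted over 2 ratios, the smallest p this design allows being 0.1).

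**Figure D2:**
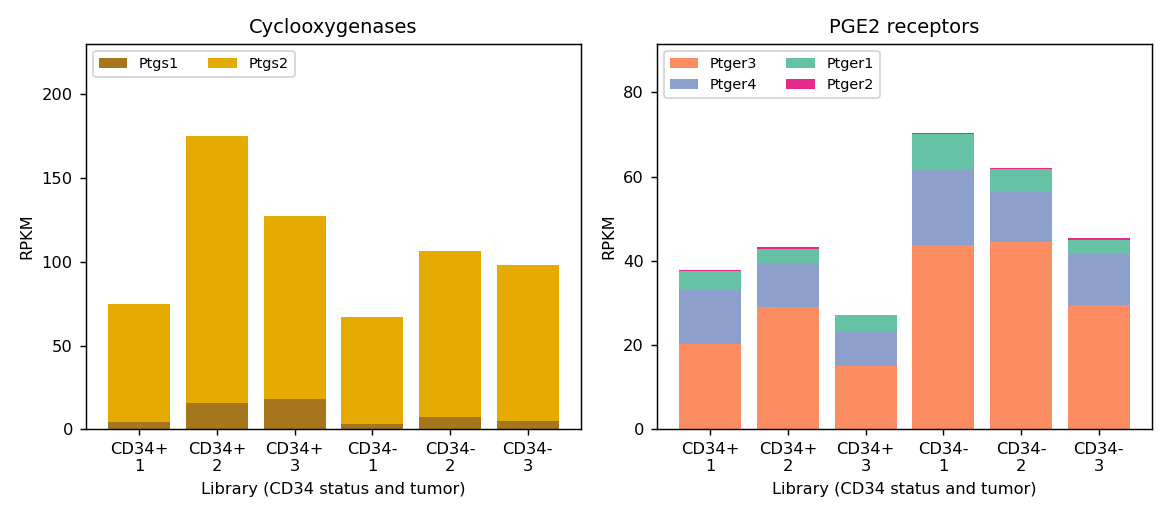
Stacked bars of RPKM per library for the cyclooxygenases (left) and the 4 PGE2 receptors (right), CD34+ libraries of tumors 1 to 3 first. Ptgs2 made up at least 85.7% of each cyclooxygenase bar, and Ptger3 was the largest segment of every receptor bar.

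The synthases Ptges (30889471 to 30931020) and Ptgis (167203194 to 167252150) also lie on chromosome 2. Ptgis, which makes prostacyclin, measured 79.4, 91.9 and 77.7 CPM in CD34+ libraries and 61.9, 27.0 and 29.5 CPM in CD34- libraries. All CD34+ values lay above all CD34- values, and tumor 1 showed the smallest separation. The means were 83.0 ± 7.80 and 39.4 ± 19.5 CPM (SD, n = 3), and the log2 fold change was -1.15 ± 0.31 (adjusted p = 0.154). With the block Ptgis fell by 1.17 ± 0.24 in CD34- CAFs (limma-voom adjusted p = 0.0183). It was also called in limma-voom without the block when tumor 1 was left out (-1.59, adjusted p = 0.0378) and in DESeq2 without the block (adjusted p = 0.0427), but not in edgeR with the block (adjusted p = 0.0705).

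Ptges, the inducible PGE2 synthase that works with COX-2, measured 60.7, 76.96 and 82.0 CPM in CD34+ libraries and 56.3, 69.5 and 45.6 CPM in CD34- libraries. The groups overlapped and tumor 3 showed the widest gap. The log2 fold change of Ptges was -0.38 ± 0.21 (adjusted p = 0.451), and -0.36 ± 0.17 with the block (adjusted p = 0.252). Without the CD34- library of tumor 3 the unblocked value of Ptges was -0.22 (adjusted p = 0.647). The log2 ratio of Ptgis to Ptges counts was 0.39, 0.26 and -0.08 in CD34+ libraries and 0.14, -1.37 and -0.63 in CD34- libraries. It was lower in the CD34- library of each tumor, by 0.81 on average, while the groups overlapped (exact permutation p = 0.2, 0.2 adjusted over 2 ratios). Ptgds, the lipocalin-type PGD2 synthase, had 1 count over all 6 libraries, in the CD34- library of tumor 1, and was not tested. PGD2 synthase RNA of this type was therefore at or under the 3-count limit in every library.

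Hpgd, which oxidizes PGE2 and PGF2 alpha to inactive products, had the largest fold change of the members with all 6 libraries, a rank that passed to Ptgfr (-1.72 against -1.60 on the log2 scale, unblocked) without the CD34- library of tumor 3. It lies on chromosome 8 (56294552 to 56321046, GRCm38.p6), and the 250 bases before its RefSeq start (chr8:56294302-56294551, forward strand) are shown because the gene starts prostaglandin breakdown and did not overlap between the groups, with its GC box in capitals.

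Hpgd: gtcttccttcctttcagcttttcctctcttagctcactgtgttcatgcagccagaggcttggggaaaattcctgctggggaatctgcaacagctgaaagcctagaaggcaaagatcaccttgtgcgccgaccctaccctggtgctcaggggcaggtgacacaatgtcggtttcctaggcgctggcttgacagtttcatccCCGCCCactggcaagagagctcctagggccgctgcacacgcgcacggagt

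Hpgd measured 54.9, 33.9 and 27.6 CPM in CD34+ libraries of tumors 1, 2 and 3, and 13.4, 10.2 and 0.193 CPM in CD34- libraries. The groups did not overlap, and the CD34- library of tumor 3, with 7 counts of Hpgd, lay far under the others. The means were 38.8 ± 14.3 and 7.93 ± 6.88 CPM (SD, n = 3). The log2 fold change was -3.15 ± 1.07 (adjusted p = 0.245), and with the block Hpgd fell by 2.14 ± 0.43 (limma-voom adjusted p = 0.0165). Without the CD34- library of tumor 3 the unblocked log2 fold change was -1.60 (adjusted p = 0.179), and with the block and without tumor 3 it was -1.90 (adjusted p = 0.000164). The blocked call was lost when tumor 1 was left out (-2.19, adjusted p = 0.0611), in edgeR (adjusted p = 0.132) and in DESeq2 (adjusted p = 0.0812).

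**Figure D3:**
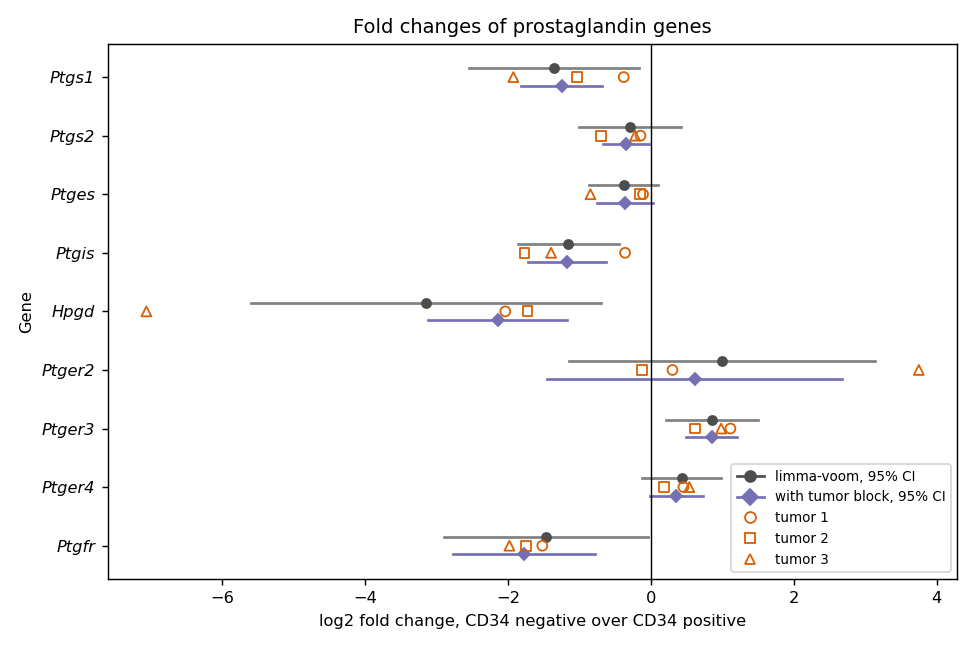
Log2 fold change of each tested member, CD34- over CD34+, from limma-voom without (grey circles) and with (purple diamonds) the tumor block, with 95% intervals, and the log2 ratio within each tumor as open orange symbols. Ptgs1, Ptgis, Hpgd and Ptgfr lay under 0 in all 3 tumors and Ptger3 and Ptger4 above 0, while the Hpgd ratio of tumor 3 (-7.06) and the Ptger2 ratio of tumor 3 (3.75) stood far from those of the other tumors.

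The receptors went in different directions. Ptger3, the EP3 receptor, was the only member called higher in CD34- CAFs and the only one called by limma-voom, edgeR and DESeq2 alike with the block. It lies on chromosome 3 (157566821 to 157644758, GRCm38.p6). The 195 bases before the RefSeq gene (chr3:157566626-157566820, forward strand) are shown for that reason, with a GC box in capitals. They are the first part of a window whose listed start lies within the gene.

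Ptger3: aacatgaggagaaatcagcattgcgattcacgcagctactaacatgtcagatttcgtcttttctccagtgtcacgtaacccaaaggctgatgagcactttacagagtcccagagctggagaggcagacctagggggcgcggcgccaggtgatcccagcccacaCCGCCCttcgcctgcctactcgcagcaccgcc

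Ptger3 measured 40.9, 58.5 and 30.2 CPM in CD34+ libraries and 88.5, 89.7 and 59.8 CPM in CD34- libraries. Every CD34- value lay above every CD34+ value, although the lowest CD34- value, in tumor 3, was close to the highest CD34+ value, in tumor 2. The means were 43.2 ± 14.3 and 79.3 ± 16.9 CPM (SD, n = 3), and the log2 fold change was 0.85 ± 0.28 (adjusted p = 0.231). With the block Ptger3 rose by 0.85 ± 0.16 in CD34- CAFs (adjusted p = 0.0117 in limma-voom, 0.0334 in edgeR and 0.000103 in DESeq2). The log2 ratios of tumors 1, 2 and 3 were 1.11, 0.62 and 0.98, and with the block the call held whichever tumor was left out (adjusted p from 0.00691 to 0.0213).

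Ptger4, the EP4 receptor, measured 38.4, 31.2 and 24.3 CPM in CD34+ libraries and 52.7, 35.3 and 35.3 CPM in CD34- libraries. It was higher in the CD34- library of each tumor, but the groups overlapped. The log2 fold change of Ptger4 was 0.43 ± 0.24 (limma-voom adjusted p = 0.459), and 0.36 ± 0.16 with the block (adjusted p = 0.223), which was not called. Ptger2, the EP2 receptor, rested on 3 to 89 counts per library. It measured 0.928, 1.04 and 0.106 CPM in CD34+ and 1.18, 0.952 and 1.65 CPM in CD34- libraries, a log2 fold change of 1.00 ± 0.94 (adjusted p = 0.668), and a difference in Ptger2 was not detectable at this depth.

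Per length, Ptger3 held 58.6 ± 7.38% of the summed PGE2 receptor RNA in CD34+ and 66.4 ± 4.73% in CD34- CAFs (SD, n = 3). Ptger4 held 29.6 ± 4.97% and 23.6 ± 3.83%, and Ptger1, the calcium-coupled EP1 receptor, 11.3 ± 3.19% and 9.47 ± 2.28%. Ptger2 held under 1% in each library (at most 0.965%). The receptor that lowers cyclic AMP was thus the most abundant PGE2 receptor RNA in both groups, and the shares overlapped between groups for all 4 receptors.

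Ptgfr, the PGF2 alpha receptor, lies on chromosome 3 (151798610 to 151837528). It measured 6.07, 3.52 and 10.1 CPM in CD34+ libraries and 2.12, 1.04 and 2.56 CPM in CD34- libraries. The groups did not overlap, and the level was low throughout, with 47 to 301 counts per library. The log2 fold change was -1.47 ± 0.63 (adjusted p = 0.340), and with the block Ptgfr fell by 1.77 ± 0.44 (limma-voom adjusted p = 0.0393). The log2 ratios within tumors, -1.52, -1.75 and -1.98, lay close together. The blocked call was lost without tumor 1 (adjusted p = 0.204) and without tumor 2 (adjusted p = 0.151), where the log2 fold changes were -1.91 and -1.80, and in edgeR (adjusted p = 0.0807). DESeq2 called Ptgfr without the block (adjusted p = 0.0474).

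The order of the members' levels per length differed between the groups. In CD34+ CAFs, Ptgs2 was highest at 113 ± 44.7 RPKM (SD, n = 3), above Ptgis at 47.4 ± 4.45 RPKM, with no overlap between the libraries of these genes. Hpgd (22.6 ± 8.33), Ptger3 (21.4 ± 7.08) and Ptges (20.1 ± 3.05 RPKM) came next and overlapped, followed by Ptgs1 (12.7 ± 7.44) and Ptger4 (10.5 ± 2.37 RPKM), which overlapped too. Ptgs1 spanned 4.21 to 18.2 RPKM and so also overlapped with Hpgd, Ptger3 and Ptges above it. Ptgfr (1.49 ± 0.75) and Ptger2 (0.184 ± 0.136 RPKM) were last.

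In CD34- CAFs, Ptgs2 again led at 85.3 ± 18.9 RPKM, and Ptger3 stood next at 39.3 ± 8.39 RPKM. Ptgis followed at 22.5 ± 11.1 RPKM, overlapping with Ptger3 above it and with Ptges (15.7 ± 3.29) below it. Both Ptgis and Ptges overlapped with Ptger4 (13.9 ± 3.39 RPKM). Ptgs1 (5.21 ± 2.21) and Hpgd (4.61 ± 4.004 RPKM) overlapped, as did Ptgfr (0.432 ± 0.177) and Ptger2 (0.334 ± 0.0947 RPKM) at the foot of the order. Through the CD34- library of tumor 3, at 0.112 RPKM, Hpgd overlapped with these as well. By mean, Hpgd ranked above Ptger4 in CD34+ CAFs and below it in CD34- CAFs, without overlap between the libraries of these genes in either group.

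The rest of the pathway was described from 6 lists of genes, 54 of which were tested beside the members. None of the 54 was called by limma-voom without the block, against 0.121% of all genes. In that fit 6 were higher and 2 lower in CD34- CAFs at an unadjusted p under 0.05, against 7.23% and 7.1% of all genes. DESeq2 without the block called 3, against 4.7% of all genes. With the block limma-voom called 5, 3 higher and 2 lower in CD34- CAFs, beside 8.57% of all genes.

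Of 12 tested genes for the release of arachidonate, 11 had a log2 fold change above 0 and the median was 0.32, beside -0.03 for all genes. Plaat3, a phospholipase A abundant in fat tissue, measured 69.4, 58.8 and 26.2 CPM in CD34+ and 109, 110 and 122 CPM in CD34- libraries. The groups were well apart, and tumor 3 had the widest gap. Plaat3 rose by 1.21 ± 0.25 on the log2 scale with the block (adjusted p = 0.0189), by 0.78 when tumor 3 was left out (adjusted p = 0.00540), and was not called by edgeR with the block (adjusted p = 0.0806). The unblocked log2 fold change of Plaat3 was 1.28 ± 0.32 (adjusted p = 0.142).

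Among the 3 most abundant uncalled genes, Anxa1, the annexin that restrains phospholipase A2, had a log2 fold change of -0.16 ± 0.22 (adjusted p = 0.778). Mgll, which frees arachidonate from a monoacylglycerol, had one of 0.58 ± 0.52 (adjusted p = 0.648), and that of Pla2g4a, the cytosolic phospholipase A2 that supplies the cyclooxygenases, was 0.36 ± 0.19 (adjusted p = 0.422).

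Of 9 other prostanoid synthases, 4 had a log2 fold change above 0 and 5 below, with a median of -0.03. Akr1c18, an aldo-keto reductase best known for inactivating progesterone, was the one called. It measured 3.47, 29.5 and 38.0 CPM in CD34+ libraries and 0.516, 2.30 and 0.0275 CPM in CD34- libraries, the last value being 1 count. The groups of Akr1c18 did not overlap, and the CD34+ library of tumor 1 lay far under the other CD34+ libraries. With the block Akr1c18 fell by 4.32 ± 0.96 (limma-voom adjusted p = 0.0246), against -5.71 ± 2.26 without it (adjusted p = 0.310). Without the CD34- library of tumor 3 the unblocked value was -4.34 (adjusted p = 0.312), and the blocked call was lost without tumor 1 (-4.72, adjusted p = 0.0531), without tumor 2 (-5.70, adjusted p = 0.105) and in edgeR (adjusted p = 0.0808). The 3 most abundant uncalled synthases were Akr1b8 (0.10 ± 0.26), Gstm5 (-0.17 ± 0.23) and Cbr1 (0.37 ± 0.25 on the log2 scale), with adjusted p of 0.886, 0.772 and 0.536.

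None of the 4 other receptors and receptor partners was called by limma-voom with or without the block over all 6 libraries (median log2 fold change 0.53). Ptgfrn, a membrane protein that binds the PGF2 alpha receptor and lowers its ligand binding, averaged 619 ± 46.6 CPM in CD34+ and 835 ± 128 CPM in CD34- CAFs. Its log2 fold change was 0.43 ± 0.19 (adjusted p = 0.349, and 0.0852 with the block), so that the partner lay on the other side of 0 from Ptgfr itself. DESeq2 with the block called Ptgfrn (adjusted p = 0.0451), as did limma-voom with the block and without tumor 1 (adjusted p = 0.0429). Ptger1 had a log2 fold change of 0.64 ± 0.37 (adjusted p = 0.477, and 0.0480 with the block and without tumor 3) and the prostacyclin receptor Ptgir one of -0.28 ± 0.30 (adjusted p = 0.711), beside the lower RNA of the prostacyclin synthase Ptgis in CD34- CAFs.

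Among 7 genes for transport and further breakdown, 6 had a log2 fold change below 0 (median -0.34), but none was called. In the CD34- library of all 3 tumors 5 were lower, where 23.4% of all genes were lower in all 3. Slco3a1 (-0.34 ± 0.44) and Slco2a1 (-0.37 ± 0.24), carriers that move prostaglandins across the membrane, and Ptgr2 (-0.13 ± 0.16), a reductase that acts after Hpgd, were the 3 most abundant, with adjusted p of 0.762, 0.516 and 0.750.

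The leukotriene branch uses the same arachidonate. Of its 7 tested genes, 3 had a log2 fold change above 0 and 4 below (median -0.25). Ltc4s, the leukotriene C4 synthase, measured 1.24, 4.04 and 2.33 CPM in CD34+ and 4.17, 9.43 and 15.6 CPM in CD34- libraries, groups that came close without overlapping. With the block Ltc4s rose by 1.67 ± 0.41 (limma-voom adjusted p = 0.0359), against 1.36 ± 0.72 without it (adjusted p = 0.434). The call was lost without tumor 1 (adjusted p = 0.0701), without tumor 2 (2.53, adjusted p = 0.0837) and in edgeR with the block (adjusted p = 0.0665). Dpep1 (-0.25 ± 0.34), Lta4h (-0.32 ± 0.17) and Ephx2 (0.16 ± 0.42) were the 3 most abundant uncalled genes, with adjusted p of 0.776, 0.430 and 0.897.

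Of 15 genes that respond to cyclic AMP, the second messenger of EP2 and EP4, 9 had a log2 fold change above 0 and 6 below, with a median of 0.27. With the block 1 rose and 1 fell. Per1, a repressor of the circadian clock, measured 79.9, 57.8 and 76.8 CPM in CD34+ libraries and 138, 95.7 and 112 CPM in CD34- libraries, without overlap, and rose by 0.69 ± 0.13 with the block (adjusted p = 0.0134, 0.0413 in edgeR, and 0.107 without tumor 2). The cytokine Il6 measured 507, 771 and 386 CPM in CD34+ and 346, 429 and 129 CPM in CD34- libraries. The groups of Il6 overlapped, while the CD34- library was lower in each tumor, and Il6 fell by 0.99 ± 0.19 with the block (adjusted p = 0.0123, and 0.0616 in edgeR, which did not call it). Without the block the log2 fold changes were 0.70 ± 0.21 for Per1 (adjusted p = 0.188) and -0.98 ± 0.45 for Il6 (adjusted p = 0.373). That of Il6 was -0.42 (adjusted p = 0.567) without the CD34- library of tumor 3.

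The immediate early genes of this list, which many stimuli induce, were abundant in both groups. Fos had a log2 fold change of -0.00 ± 0.24 (adjusted p = 0.999), Junb of 0.46 ± 0.33 (adjusted p = 0.567) and Nr4a1 of 0.46 ± 0.29 (adjusted p = 0.509).

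**Figure D4:**
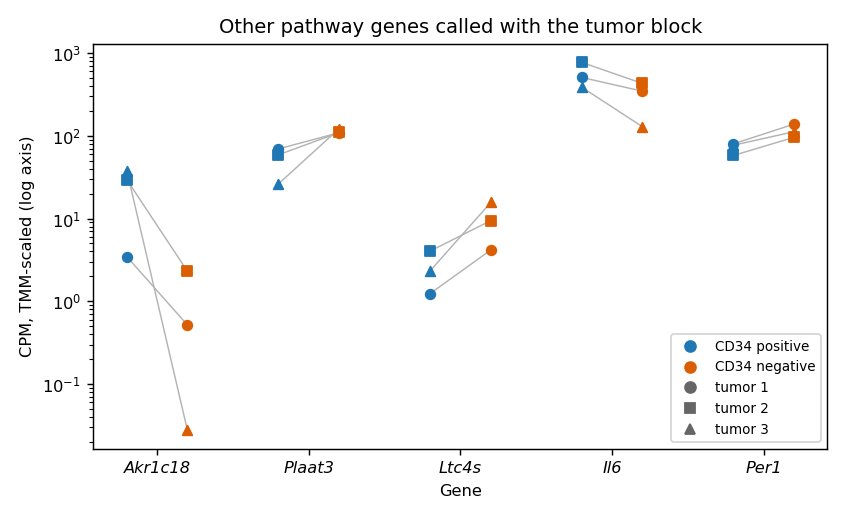
CPM on a log axis of the 5 pathway genes outside the members that were called with the tumor block, CD34+ libraries in blue and CD34- in orange, with symbols for the 3 tumors and lines joining the libraries of a tumor. Akr1c18 and Il6 were lower and Plaat3, Ltc4s and Per1 higher in the CD34- library of all 3 tumors, and the Akr1c18 point at 0.0275 CPM is 1 count in the CD34- library of tumor 3.

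Across the 6 libraries, the 5 genes with the log2 CPM pattern most like Ptgs1 among 9015 genes were B4galt1 (Pearson r = 0.991), Rbm45 (0.986), Tmem256 (0.983), Anxa2 (0.983) and N6amt1 (0.982). For Ptgs2 they were Tuba1c (0.996), Eif4g1 (0.995), Hdgf (0.994), Ccdc90b (0.992) and Exosc8 (0.991). No gene stood on both lists. The points are 3 pairs of libraries from shared tumors, so these values rank likeness and carry no test.

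Markers of other cells were measured beside these results. The 7 epithelial markers summed to between 20.6 and 144 CPM in CD34+ and between 58.9 and 168 CPM in CD34- libraries, with 6 of 7 higher in the CD34- library of all 3 tumors and none at 0 throughout. The 6 pericyte and smooth muscle markers summed to between 79.1 and 179 CPM and between 172 and 204 CPM, with 4 higher and 2 lower in all 3 tumors. Without overlap, Rgs5, Notch3 and Cspg4 averaged 0.818, 20.3 and 31.5 CPM in CD34+ and 6.16, 54.5 and 101 CPM in CD34- libraries. Kcnj8, also without overlap, went the other way (10.5 and 2.00 CPM). Myh11 was higher and Abcc9 lower in CD34- libraries by mean, with overlap. These too are named after their values were seen. The 8 leukocyte markers reached at most 19.9 CPM and the 5 endothelial markers at most 28.3 CPM, with overlapping sums. Of the leukocyte markers 3 were higher and 1 lower in the CD34- library of all 3 tumors, and of the endothelial markers 1 was higher and 1 lower. The macrophage gene Lyz2 lay between 1.79 and 4.48 CPM in CD34+ and between 6.02 and 8.83 CPM in CD34- libraries, and Adgre1, another macrophage gene, between 0.0117 and 0.176 and between 0.664 and 0.770 CPM. Both are named after their values were seen, because their groups did not overlap. Adgre1 rested on 1 to 5 counts in the CD34+ libraries. The macrophage markers Csf1r and Cd68 overlapped between the groups and went the other way by mean. Csf1r averaged 4.19 CPM in CD34+ and 3.79 CPM in CD34- libraries, being lower in the CD34- library of tumors 2 and 3 alone. Cd68 averaged 1.25 and 0.880 CPM. Its lower CD34- mean rested on 0 counts in the CD34- library of tumor 3. In tumors 1 and 2 Cd68 was slightly higher in the CD34- library (1.80 against 1.67 and 0.841 against 0.831 CPM). Of the 5 mast cell markers, Tpsb2 and Fcer1a were at 0 in every library. Cpa3 had 1 count, in the CD34- library of tumor 2, and Mcpt4 had 12, in the CD34+ library of tumor 2. Kit carried the rest of a sum between 0.459 and 9.04 CPM in CD34+ and between 7.89 and 11.9 CPM in CD34- libraries. The 3 adipocyte markers summed to at most 0.882 CPM, and the 4 Schwann cell markers to between 7.56 and 18.3 CPM. The part of these cells in the differences of Ptger3, Ltc4s and the other called genes was not tested.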

How the data were processed

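RNA of 6 sorted fibroblast libraries was sequenced by the authors (TruSeq RNA v2, NextSeq). Per the study's methods, reads were aligned to GRCm38/mm10 and counted per NCBI gene with Rsubread (featureCounts in the submitters' processing notes). The deposited values are raw counts, without normalization. Strand setting and multi-mapped reads are not given in the sources used here. Gene models that overlap Ptges and Ptgis in RefSeq had no row in the table.

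Groups and tumor numbers came from the sample titles. Genes were filtered with filterByExpr (minimum count 10), scaled by TMM and tested two-sided with limma-voom and Benjamini-Hochberg adjustment over 14855 genes at 0.05 (R 4.3.3, limma 3.58.1, edgeR 4.0.16, DESeq2 1.42.0). Scripts were tested on simulated data. Libraries of a number come from the same tumor. Across genes, their departures from the group means were correlated at 0.373, 0.350 and 0.219, so blocked values are printed where they change a call. Without the block, p-values rest on the spread between libraries of a group, and with it on how the difference within a tumor varies between tumors. The labels do not say that the tumors came from separate mice, so p-values speak for these tumors only.

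RPKM used the gene lengths of the count table, and the lengths of the transcripts in use were not measured. The 2 count ratios had 0.5 added to each count. All 10 members were named, with pathway genes called in either limma-voom fit, the 3 most abundant uncalled genes per list, and the 5 genes most like Ptgs1 and Ptgs2 (mean log2 CPM of at least 3). The alternatives for single pathway genes were added after seeing the data. Members and lists were chosen with earlier results of these data known. Promoters are from RefSeq (GRCm38.p6), with 9 of 10 members matched. The 3-count limit covers counting error only, whereas the limma-voom intervals rest on the spread between libraries.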

Additional observations from a re-analysis of the deposited data

How the results depend on the processing

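The number of members called was 0 in limma-voom without the block and depended on the tumor block and the tool. It was 2 in DESeq2 without the block, 5 in limma-voom with the replicate block (also with library totals alone in place of TMM), 1 in edgeR with the block and 4 in DESeq2 with the block. Leaving out a library or a tumor without the block gave 0 to 1 (Ptgis without tumor 1), and leaving out tumor 1, 2 or 3 with the block gave 3, 4 and 5, where 7.61%, 5.82% and 13% of all genes were called. The pathway genes called numbered 0 in limma-voom without the block, 3 in DESeq2, 5 with the block (also with library totals alone), 1 and 8 with the block in edgeR and DESeq2, and 4, 4 and 10 with the block in the same fits without tumor 1, 2 or 3. Other normalization, filters, quality weights and official symbols only kept both counts at 0. In limma-voom over all 6 libraries, the pairing changed no call of a member or pathway gene beyond the 5 and 5 printed. All 9 tested members kept their direction in each of 25 fits, and of the pathway genes refitted only Ptgir crossed 0, at 0.017 with the block and without tumor 3. The causes were not tested. The difference in the Ptgs2 to Ptgs1 log2 ratio lay between 0.29 and 1.12, and that of Ptgis to Ptges between -1.19 and -0.40, when a library or a tumor was left out. With 3 tumors a paired sign test of these ratios cannot give a p under 0.25. Counts were few for Ptger2 (3 to 89 per library) and low for Ptgfr (47 to 301), and Ptgds had 1 count over all 6 libraries.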
